A study of Mus musculus with 2 samples.

Results

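Malat1, Gm37376, Gm42418, Snhg11, Neat1 and Miat are 6 genes known or annotated as sources of long noncoding RNA, and their levels were described in RNA-seq of mouse Purkinje cells, the GABAergic output neurons of the cerebellar cortex. They are 6 of the 43346 mouse genes quantified. Members were chosen by name as nuclear noncoding RNAs, and some were selected on their measured level in these same libraries, so a high level is a description here and no result. Each was found by its gene identifier in both libraries. The series holds 1 group of 2 libraries, called pool 2 and pool 1 after the replicate numbers in the labels. Each was made from 50 Purkinje cells of a male wild type C57Bl6 mouse (strain B6NCrl) aged 8 months, collected by laser capture according to the linked protocol, with RNA longer than 200 nt sequenced and ERCC spike-ins, synthetic RNAs of known amount, added. The labels link a Smart-seq protocol to pool 2 alone. Both pools carry 1 donor identifier and different biosamples, so separate animals are not established, and differences between these libraries may be technical. With 1 group there is no contrast between conditions and no test.

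Long noncoding RNAs of the nucleus are transcribed and spliced much as messenger RNAs are, but many stay near their site of transcription or in nuclear bodies. Malat1 collects in nuclear speckles, which store splicing factors, and its 3′ end is cut by RNase P rather than polyadenylated in the usual way. Neat1 is the scaffold of paraspeckles, bodies that hold RNA-binding proteins such as Sfpq and Nono. Miat, also called Gomafu, is a neuronal RNA that carries repeats of the intron branch point motif. Snhg11 is a host gene whose introns hold small nucleolar RNAs. Gm37376 and Gm42418 are annotated by number, and no function is given for them here.

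Most of the counts of the 2 highest members were assigned to a short stretch at the 5′ end of Malat1, and the sequences that place it are shown for that reason. The short Malat1 model (ENSMUST00000173499) has an exon 1 of which the last part lies inside Gm37376, and an exon 2 of which the capitals lie inside Gm37376. Both are read on the minus strand at chr19:5802238-5802393 and chr19:5801916-5801966 of GRCm38, and Gm37376 is the plus strand of the same bases. The junction line joins the last 30 bases of exon 1 to the 30 bases of exon 2 in capitals, a run that the full-length Malat1 transcript does not hold. All sequences come from GENCODE M21 transcripts.
Short Malat1 model, exon 1 inside Gm37376: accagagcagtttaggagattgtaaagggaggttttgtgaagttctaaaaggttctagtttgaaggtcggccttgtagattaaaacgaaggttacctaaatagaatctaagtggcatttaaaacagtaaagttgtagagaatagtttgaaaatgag
Short Malat1 model, exon 2: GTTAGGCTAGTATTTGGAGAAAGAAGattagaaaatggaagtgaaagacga
Short Malat1 model, exon junction: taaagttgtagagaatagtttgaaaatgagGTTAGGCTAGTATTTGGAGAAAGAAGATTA

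The levels of the 6 RNAs spanned from the highest of all mouse genes to below the limit of detection, set at a TPM of 1 in both pools. TPM is the level per transcript length, scaled to 1000000 in each library. Malat1 stood at 79034 TPM in pool 2 and 74774 TPM in pool 1, and Gm37376 at 56444 TPM in pool 2 and 51687 TPM in pool 1. They ranked 1 and 2 among all genes by mean TPM, and the next gene, Pcp4, a Purkinje cell calmodulin-binding peptide, had 17167 TPM in pool 2 and 16756 TPM in pool 1. Gm42418 had 1538 TPM in pool 2 and 3782 TPM in pool 1, and Snhg11 had 650 TPM in pool 2 and 646 TPM in pool 1. Neat1 was far lower, at 6.62 TPM in pool 2 and 3.92 TPM in pool 1. Miat had 0.06 TPM in pool 2 and 0.63 TPM in pool 1 and was the 1 member below detection. Of the 6, 4 ranked between 1 and 185 of all genes, and calling the set abundant goes against the data for Neat1 and Miat, at ranks 8513 and 15999.

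**Figure D1:**
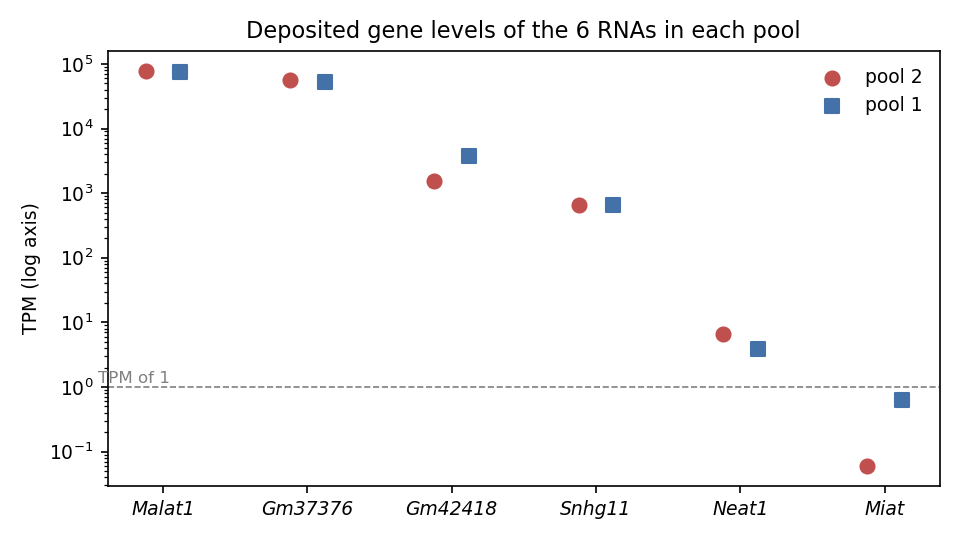
TPM of each of the 6 RNAs (log axis) in pool 2 (circles) and pool 1 (squares), 1 point per library, with the detection limit of 1 TPM as a dashed line. Malat1 and Gm37376 lie at the top in both pools, down to 51687 TPM for Gm37376 in pool 1, and Miat lies below the line in both.

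Means over the 2 pools were 76904 ± 3012 TPM for Malat1, 54066 ± 3364 TPM for Gm37376, 2660 ± 1587 TPM for Gm42418, 648 ± 2.84 TPM for Snhg11, 5.27 ± 1.91 TPM for Neat1 and 0.345 ± 0.403 TPM for Miat (SD, n = 2 each). The order of the 6 was the same in each pool, by TPM and by counts, and no member's pool values overlapped with those of the member next in order. The 6 together took 5.64% of all counts in pool 2 and 5.40% in pool 1. By TPM they took 13.8% in pool 2 and 13.1% in pool 1, since a short transcript model turns the same counts into more TPM. Malat1 and Gm37376 alone made 5.17% of counts in pool 2 and 4.61% in pool 1.

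Among the 6853 genes in the files with a long noncoding class in GENCODE M21, 799 were detected in both pools and 3212 had no count in either. The class TEC, of loci still to be tested by experiment, was counted as long noncoding here and holds Gm37376. Of the 6853 genes, Malat1, Gm37376 and Gm42418 were the highest 3. Lhx1os, the divergent neighbour of the homeobox gene Lhx1, came next with 1321 TPM in pool 2 and 1321 TPM in pool 1. Gm14033 followed with 432 TPM in pool 2 and 461 TPM in pool 1. Snhg11 is left out of this ranking because GENCODE M21 calls it protein-coding, whereas RefSeq lists it as a long noncoding RNA. All long noncoding genes together took 14.7% of TPM in pool 2 and 14.1% in pool 1, so that the 2 genes at the Malat1 5′ end made up most of that class on the deposited scale. That TPM share rests on the short transcript models at this locus. By counts the class took 6.48% in pool 2 and 6.24% in pool 1, of which these 2 genes made 5.17% and 4.61%.

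**Figure D2:**
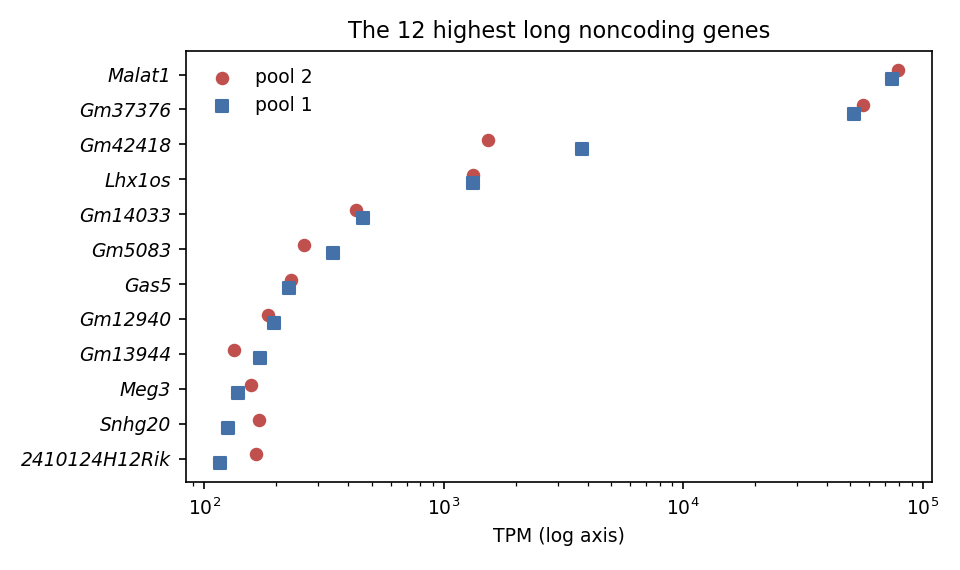
TPM (log axis) of the 12 long noncoding genes with the highest mean, in pool 2 (circles) and pool 1 (squares). Malat1 and Gm37376 stand apart from the rest, and Gm42418 is the widest pair at 1538 TPM in pool 2 and 3782 TPM in pool 1.

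Malat1 (chr19:5795690-5802672, minus strand, GRCm38, a lincRNA) had 941360 expected counts in pool 2 and 736400 in pool 1. The transcript files placed nearly all of its TPM on the short model of 485 nt, which begins 1 base inside the full-length transcript. Its share of the gene, the deposited isoform percent, was 98.6% in pool 2 and 98.3% in pool 1. Full-length Malat1 (ENSMUST00000172812), of 6983 nt and 1 exon, held 1.34% in pool 2 and 1.70% in pool 1. In counts the imbalance was smaller, because counts grow with length. The short model was given 757292 counts in pool 2 and 562910 in pool 1, and full-length Malat1 183858 counts in pool 2 and 173338 in pool 1.

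Divided by the positions at which a 100 nt fragment can start, the length the deposited effective lengths correspond to, these counts differed widely between models. The short Malat1 model held 1962 counts per position in pool 2 and 1458 in pool 1. Full-length Malat1 held 26.7 counts per position in pool 2 and 25.2 in pool 1. Gm37376 held 1420 counts per position in pool 2 and 1026 in pool 1, close in size to the short Malat1 model rather than to the full-length RNA. Models near the 3′ end were all but empty: the model of 556 nt had 1.13 counts in pool 2 and 2.27 in pool 1, and a model of 656 nt had 0 in both. Another transcript of 656 nt, which is not in GENCODE M21, had 209 counts in pool 2 and 149 in pool 1.

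Gm37376 (chr19:5801941-5802393, plus strand, 453 nt) is annotated as TEC, a class of loci still to be tested by experiment, and its whole length lies within full-length Malat1 on the opposite strand. Counted from the 5′ end of full-length Malat1, positions 280 to 435 and 707 to 732 belong to all 3 models, and positions 436 to 706, the intron of the short model, belong to full-length Malat1 and Gm37376. All 354 of its windows of 100 nt occur in Malat1 on the other strand, so none tells the genes apart by sequence alone. Of the 386 such windows of the short Malat1 model, 49 occur in no other deposited transcript, and 59 occur in Gm37376 on the other strand. The strand setting of the counting was not given in the sources used here. Without strand, reads from the bases that Gm37376 and Malat1 share cannot be told apart.

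The deposited counts carried a trace of this sharing. The counts of Malat1 and of Gm37376 each had a fraction, 941359.77 and 502855.23 in pool 2 and 736399.63 and 363077.37 in pool 1. Their sums were whole numbers, 1444215 in pool 2 and 1099477 in pool 1. The deposited posterior SD was also 1 value for both genes, 206 counts in pool 2 and 187 counts in pool 1, and no other gene had it. Of these values, only the sum does not depend on how reads were divided between the genes.

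**Figure D3:**
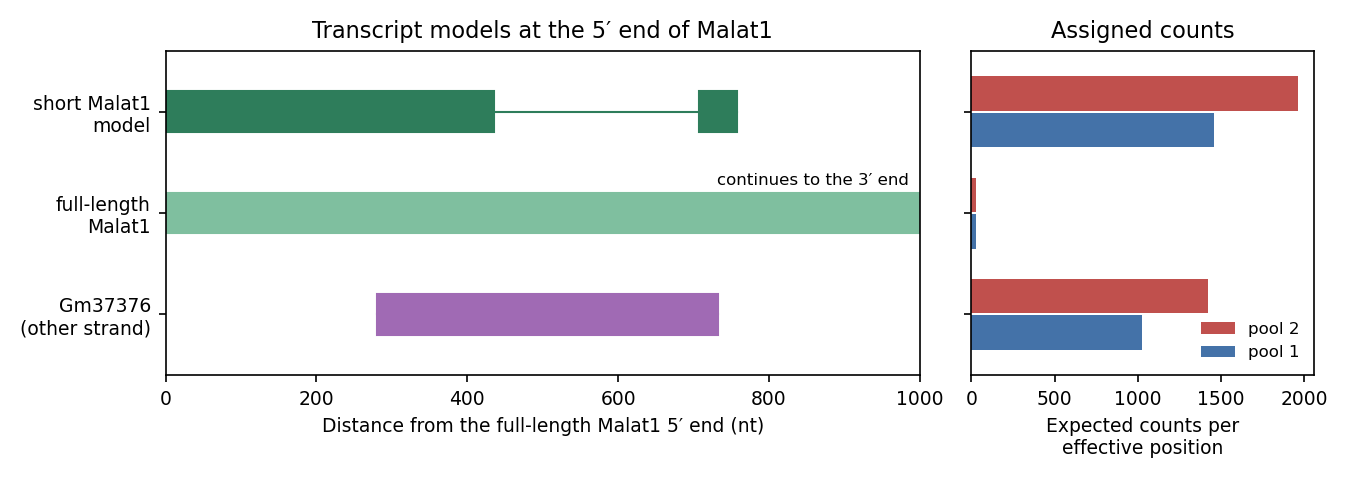
Left, the 3 main transcript models drawn to scale over the first 1000 nt from the 5′ end of full-length Malat1, with exons as boxes and the intron of the short model as a line. Right, expected counts per effective position of each model in pool 2 (upper bar) and pool 1 (lower bar), where the short model has 1962 in pool 2 and 1458 in pool 1, and full-length Malat1 has 26.7 in pool 2 and 25.2 in pool 1.

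The stretch of 757 nt that holds the short model and Gm37376 is 10.8% of the full-length RNA. It is 35.0% A with a longest run of 6 A, and the rest of full-length Malat1 is 27.9% A with a longest run of 12 A. With all counts of Malat1 and Gm37376 placed on the full-length RNA and all TPM rescaled, a setting chosen after the data were seen, Malat1 had 9551 TPM in pool 2 and 9130 TPM in pool 1, which would rank 8 among all genes. The deposited TPM of Malat1 alone was 8.23-fold higher than this mean of 9340 ± 298 TPM (SD, n = 2). That mean holds the counts of both genes, whose deposited TPM together was 130969 as a mean of the pools. Malat1 was an unusual case in this: of 4853 genes with several transcripts and a mean TPM of 10 or more, 1222 had a leading transcript with at least 90% of TPM in both pools. In only 3 of them was the longest transcript at least 10 times longer than the leader. Malat1 was at 14.4 times, and the other two, named after their values were seen, were D1Ertd622e at 14.9 times and Kbtbd11 at 11.3 times.

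Gm42418 (chr17:39846958-39848788, plus strand, lincRNA, 1 transcript of 1831 nt) was the member with the widest difference between the pools among those above detection. It had 67036 counts in pool 2 and 129975 counts in pool 1. Its log2 ratio of pool 2 over pool 1, on log2(TPM + 1), was -1.30. Per 1000000 counts it was at 2402 in pool 2 and 5454 in pool 1, a ratio of 0.440 (exact 95% counting interval 0.436 to 0.445). Intervals cover counting error only, and the labels describe no molecular identifiers. In bulk samples such as these, fewer cells of a type and less RNA per cell cannot be told apart.

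No other of the 121 genes with a mean TPM of 1000 or more had so low a ratio, and the next was Gm28437, a pseudogene with 7820 TPM in pool 2 and 14171 TPM in pool 1. Over the 6453 genes with a mean TPM of 10 or more, 14, or 0.217%, were as low in pool 2 as Gm42418. RefSeq places the 18S ribosomal RNA pseudogene Rn18s-rs5 (chr17:39846354-39848202) over 1245 of its bases, 68.0% of its length, and gives Gm42418 as a synonym of it. The other 586 bases lie past the pseudogene's end. GENCODE M21 also places a gene of the class rRNA, CT010467.1 (chr17:39846353-39848827), on the opposite strand over all 1831 bases of Gm42418. The bases past Rn18s-rs5 are thus also inside a locus annotated as ribosomal. The sequence across the end of Rn18s-rs5 is shown with the last part of that pseudogene in capitals. The lower case is Gm42418 beyond it, still inside CT010467.1 (plus strand, chr17:39848143-39848262, GRCm38).
Gm42418 around the end of Rn18s-rs5: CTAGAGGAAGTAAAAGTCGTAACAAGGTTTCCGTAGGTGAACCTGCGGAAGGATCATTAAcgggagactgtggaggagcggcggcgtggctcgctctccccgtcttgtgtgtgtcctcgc

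All 1732 windows of 100 nt in Gm42418 occur in it alone among the deposited transcripts. Rn18s-rs5 and the antisense CT010467.1 and AY036118 at this locus were not analysed here. How far reads of ribosomal RNA made up the Gm42418 count was not tested. Its neighbour Gm26917, on the same strand, had 17.5 TPM in pool 2 and 21.4 TPM in pool 1. Features of the libraries also differed between the pools. The spike-in share of all counts was 0.940% for pool 2 and 1.40% for pool 1. Of 5 blood markers, 4 were at least 1.5-fold higher in pool 2, beside 4.27% of all genes with a mean TPM of 1 or more. The other was lower, at 1.43 TPM in pool 2 and 2.22 TPM in pool 1. Blood markers summed to 2274 TPM in pool 2 and 651 TPM in pool 1, with none at 0. The part of these features in the result was not tested.

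Snhg11 (chr2:158375638-158386145, plus strand) was nearly equal in the pools, with 61292 counts in pool 2 and 55592 counts in pool 1 and a log2 ratio of 0.01. Its transcripts were less even. The longest, of 5864 nt, held 54.8% of the gene's TPM in pool 2 and 67.2% in pool 1. The transcript of 1329 nt, annotated as a target of nonsense-mediated decay, held 37.8% in pool 2 and 26.3% in pool 1. The remaining 3 transcripts each held at most 4.15% in either pool. The difference of 12.4 points in the leading transcript was within the common range, as 23.7% of the 8926 genes with several transcripts and a mean TPM of 1 or more differed by as much or more. Only 97 of the 1230 windows of this 1329 nt transcript occur in no other transcript, so most of its sequence is shared with its sister transcripts.

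The small nucleolar RNAs in the Snhg11 introns were barely seen, and at 133 nt each they are under the stated size range. Gm25187 had 9.46 counts in pool 2 and 20.0 counts in pool 1, and Gm25129 had 0 counts in pool 2 and 2.00 counts in pool 1. Gm25187 lies whole within an exon of the Snhg11 transcript of 3156 nt, annotated as a retained intron, on the same strand. Its reads cannot be told from those of that transcript by sequence alone. Snhg17, the next gene upstream and on the opposite strand, had 4.18 TPM in pool 2 and 2.04 TPM in pool 1. The counts of both intronic RNAs are too small to read a difference from. Snhg17 was higher in pool 2, on 113 counts in pool 2 and 44.0 counts in pool 1.

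Neat1 (chr19:5824708-5845478, minus strand, lincRNA) lies 22 kb from Malat1 on the same strand. It had 1027 counts in pool 2 and 710 counts in pool 1. On log2(TPM + 1) its ratio of pool 2 over pool 1 was 0.63, past 1.5-fold. Per 1000000 counts it was at 36.8 in pool 2 and 29.8 in pool 1, a ratio of 1.24 (counting interval 1.12 to 1.36), short of 1.5-fold. The TPM ratio was thus larger than the ratio of reads, since the effective length assigned to the gene was 6168 nt in pool 2 and 9134 nt in pool 1.

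That length followed the division between transcripts. A spliced transcript of 3004 nt (ENSMUST00000174287) held 80.9% of the gene's TPM in pool 2 and 64.9% in pool 1, with 391 counts in pool 2 and 147 counts in pool 1. Full-length Neat1, of 20771 nt, held 18.4% of TPM in pool 2 and 35.1% in pool 1, but 61.8% of Neat1 counts in pool 2 and 79.3% in pool 1. In level, full-length Neat1 was at 1.22 TPM in pool 2 and 1.37 TPM in pool 1, and the spliced transcript at 5.35 TPM in pool 2 and 2.54 TPM in pool 1. As background, only the long form of Neat1 builds paraspeckles. Only 56 of the 2905 windows of the spliced transcript occur in no other transcript, and these lie over its exon junction. A Neat1 transcript of 1030 nt, with 1.08 counts in pool 2 and 0 in pool 1, has the same junction. The 60 bases shown therefore lie in both transcripts and are not particular to the spliced one of 3004 nt. Its exon 2 is in capitals (minus strand, joining chr19:5844925-5844954 to chr19:5844729-5844758, GRCm38).
Spliced Neat1 transcript, exon junction: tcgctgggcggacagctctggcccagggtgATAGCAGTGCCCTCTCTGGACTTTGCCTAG

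A shift of the leading transcript as large as in Neat1 occurred in 17.2% of the genes with several transcripts. Frmd8os, a divergent transcript next to Neat1, had 0 TPM in pool 2 and 0.44 TPM in pool 1, and the 3 small RNAs annotated inside Neat1, Gm27533, Gm27505 and Gm28006, were listed at 0 in both.

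**Figure D4:**
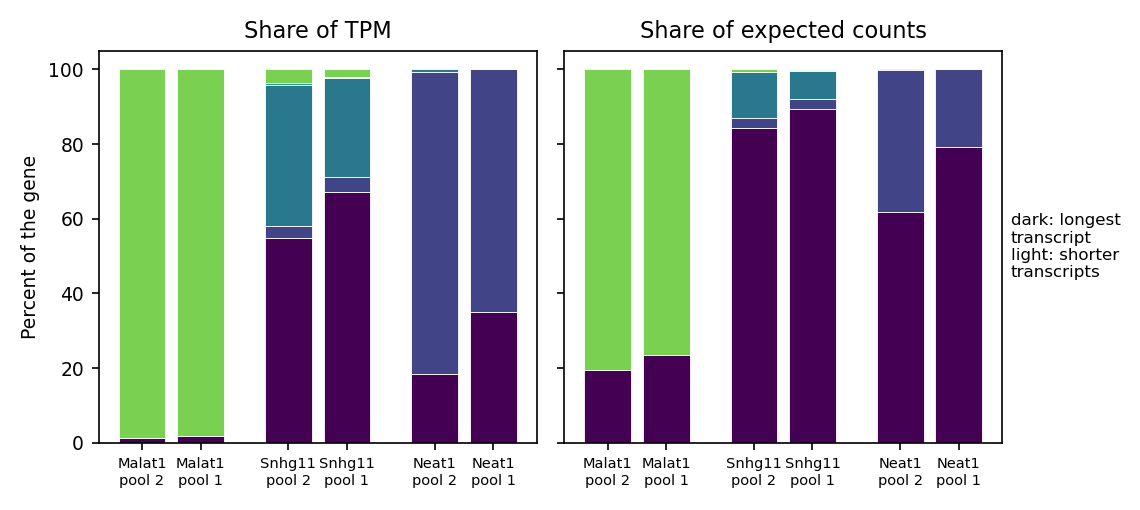
Share of each transcript in its gene by TPM (left) and by expected counts (right) in pool 2 and pool 1, stacked from the longest transcript at the bottom (dark) to shorter ones above (lighter), for Malat1, Snhg11 and Neat1. The full-length Malat1 fills 1.34% in pool 2 and 1.70% in pool 1 by TPM, against 19.5% in pool 2 and 23.5% in pool 1 by counts.

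Miat (chr5:112213228-112229395, minus strand, lincRNA) had 6.15 counts in pool 2 (exact 95% interval 2.29 to 13.3) and 17.0 counts in pool 1 (9.90 to 27.2). Per 1000000 counts this was 0.220 in pool 2 and 0.713 in pool 1, a ratio of 0.309 with a counting interval of 0.0973 to 0.801. The log2(TPM + 1) ratio of -0.62 understates it, since at such levels the pseudocount outweighs the values. Its leading transcript by TPM was 1 of 747 nt in pool 2, at 55.5%, and 1 of 357 nt in pool 1, at 77.7%. By counts it was the transcript of 8758 nt in both, at 91.5% in pool 2 and 80.8% in pool 1, and at this depth no isoform can be named. The antisense gene Gm26953, which overlaps it, had no count in either pool.

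The motif by which Miat is known was read from the deposited transcript. The Miat transcript of 8758 nt holds 11 copies of ACTAAC on its own strand, 1.26 per 1000 nt, where full-length Neat1 holds 4 and the longest Snhg11 transcript holds 1. Full-length Malat1 holds 0. Of the 5620 deposited transcripts of at least 5000 nt, 0.0356% were as dense or denser, the Miat transcript included, and the median was 0. A match of letters is a description and not a binding site, and the other strand was not searched. Among 4 splicing proteins reported to bind Miat, Qk had 56.8 TPM in pool 2 and 71.7 TPM in pool 1, Srsf1 had 42.5 TPM in pool 2 and 43.3 TPM in pool 1, and Sf1, the branch point binder, had 16.1 TPM in pool 2 and 18.1 TPM in pool 1. Celf3, at 0.44 TPM in pool 2 and 0.30 TPM in pool 1, was below detection like Miat.

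Set against all genes, the members' differences between the pools were of 2 kinds. Of the 4 members with a mean TPM of 10 or more, 0 were at least 1.5-fold higher in pool 2, beside 1.78% of all genes at that level, and 1, Gm42418, was at least 1.5-fold lower, beside 5.59%. Of the 5 members with a mean TPM of 1 or more, Neat1 was higher in pool 2, beside 4.27% of genes, and Gm42418 lower, beside 7.25%. Miat, under both limits, was also past 1.5-fold, which made 3 of 6. Beside this, 9.27% of all genes with at least 1 count in either pool were past 1.5-fold in either direction. Malat1, with a log2 ratio of 0.08, and Gm37376, with 0.13, stood inside the middle range of the 6453 genes, whose quartiles were -0.27 and 0.14 around a median of -0.05. With 1 library on each side these are ratios of libraries with no replicate check.

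On other scales the picture was the same for Gm42418 and changed for Neat1. With TMM scaling of counts the log2 ratios were 0.10 for Malat1, 0.22 for Gm37376, -1.21 for Gm42418, -0.11 for Snhg11 and 0.28 for Neat1. For Snhg11 the sign turned with the scale, from its 0.01 by TPM. Scaled by spike-ins, the median of all genes moved by 0.67, and Malat1 was at 0.70, which is 0.10 above that scale's median of 0.60. Gm42418 was at -0.61 on that scale, which is -1.21 relative to its median.

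**Figure D5:**
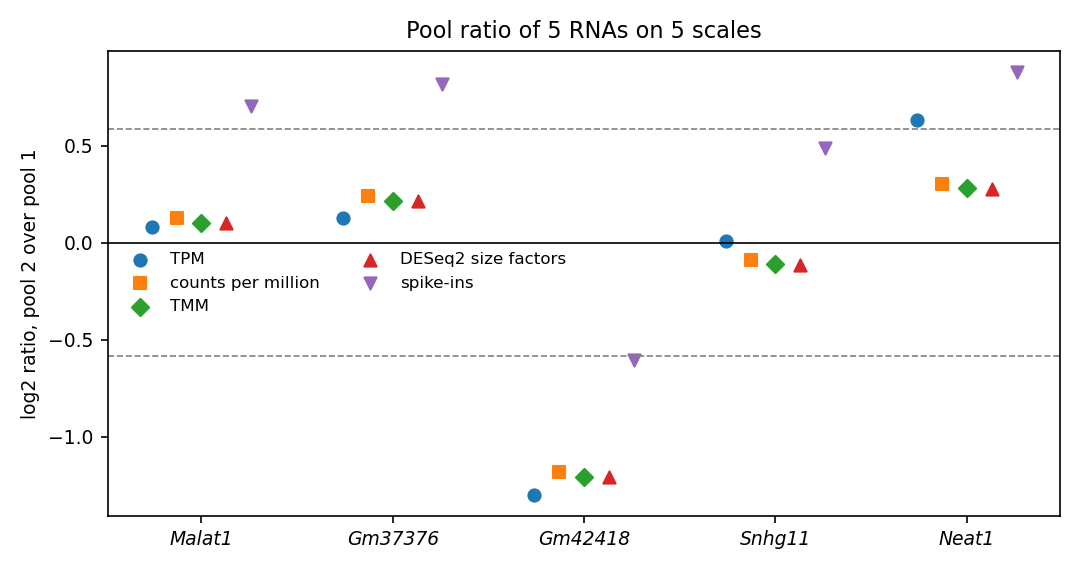
Log2 ratio of pool 2 over pool 1 for the 5 members above detection, on TPM and on counts scaled in 4 ways, with dashed lines at 1.5-fold either way. Gm42418 lies below the lower line on every scale shown, and Neat1 is past the upper line by TPM and by spike-ins. The spike-in scale moves all 5 upward, and Malat1 (0.70) and Gm37376 (0.82) are also past the upper line there.

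The proteins and RNAs that work with these noncoding RNAs were present, and most differed little. Of 16 paraspeckle proteins, all were detected, 2 were higher and 13 lower in pool 2, none by 1.5-fold, and the median log2 ratio was -0.15. Over the 13210 genes with a mean TPM of 1 or more, 41.4% were higher and 58.4% lower in pool 2, with a median of -0.07. Hnrnpk, an RNA-binding protein that steers Neat1 processing, had 182 TPM in pool 2 and 226 TPM in pool 1. Matr3, a nuclear matrix protein, had 153 TPM in pool 2 and 227 TPM in pool 1, and Tardbp had 123 TPM in pool 2 and 122 TPM in pool 1. These exceeded Neat1 itself, at 6.62 TPM in pool 2 and 3.92 TPM in pool 1, but not all 16 did. Dazap1, at 3.64 TPM in pool 2 and 3.53 TPM in pool 1, and Rbm14, at 3.52 TPM in both, were lower.

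Of 21 nuclear speckle and splicing proteins, all were detected, 8 higher and 13 lower in pool 2 with a median log2 ratio of -0.03 and none past 1.5-fold, beside those 41.4% higher and 58.4% lower of all genes. Srrm2, a core protein of speckles, had 474 TPM in pool 2 and 347 TPM in pool 1, and the splicing factor Srsf5 had 237 TPM in pool 2 and 242 TPM in pool 1. Of 12 genes listed for Malat1 3′ end processing, among them RNase P subunits and RNase Z, 11 were detected. In pool 2, 5 were higher and 7 lower, beside 41.4% and 58.4% of all genes, and the median was -0.11. Rpp25, an RNase P subunit below detection in pool 1, was the 1 past 1.5-fold higher, beside 4.27% of all genes. It had 2.39 TPM in pool 2 and 0.81 TPM in pool 1. The RNase P subunit Pop5 had 228 TPM in pool 2 and 198 TPM in pool 1, and Elac2, the RNase Z enzyme, had 5.18 TPM in pool 2 and 6.15 TPM in pool 1. Rpph1, the RNA of RNase P, had 16.6 TPM in pool 2 and 15.4 TPM in pool 1.

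Of 13 other snoRNA host genes in the files, all were detected and 11 were higher in pool 2, beside 41.4% of all genes, with a median log2 ratio of 0.26, where Snhg11 was at 0.01. Snhg9 and Snhg17 were past 1.5-fold higher, beside 4.27% of all genes, on 63.0 counts in pool 2 and 31.0 counts in pool 1 for Snhg9. Gas5, the highest of these hosts by mean, had 231 TPM in pool 2 and 225 TPM in pool 1. Of 22 other long noncoding RNAs, 16 were detected, 8 were higher and 8 lower in pool 2, with a median of -0.06, beside 41.4% and 58.4% of all genes. Past 1.5-fold, 1 was higher (Pvt1), beside 4.27% of all genes, and 3 were lower (Rian, Tug1 and 2900097C17Rik), beside 7.25%. Tug1, a widely expressed RNA, was at 19.7 TPM in pool 2 and 41.5 TPM in pool 1, and Meg3, the imprinted neuronal RNA, had 158 TPM in pool 2 and 139 TPM in pool 1.

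All 10 Purkinje cell markers were detected, with a summed 47842 TPM in pool 2 and 47692 TPM in pool 1. Bergmann glia and astrocyte markers summed to 4305 TPM in pool 2 and 3937 TPM in pool 1, granule cell markers to 138 TPM in pool 2 and 109 TPM in pool 1, and oligodendrocyte markers to 213 TPM in pool 2 and 218 TPM in pool 1. How much of each RNA came from other cells was not tested. The depth was 27907662 expected counts in pool 2 and 23830685 in pool 1.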

How the data were processed

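The members and gene lists were chosen with earlier results of these data known. RNA-seq of 2 pools of 50 Purkinje cells each was quantified by the authors against mm10 and GENCODE M4, per the file headers and the notes deposited beside them. No aligner, counting tool or strand setting is named: they are not given in the sources used here. Expected counts, as deposited, are the authors' estimates of reads for each gene or transcript, with no normalization. The deposited TPM values were scaled by the authors to 1000000 per library, spike-ins included. The isoform percent, also deposited, is each transcript's part of its gene's TPM. Deposited confidence bounds and the coverage tracks were not used here.

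Symbols, coordinates and sequences came from GENCODE M21 on the same assembly (GRCm38), which named 42462 of 43346 mouse genes, and all 6 members matched. The 26248 entries with numeric identifiers, with 16 counts in pool 2 and 10 counts in pool 1, and 97 spike-in entries stayed out of gene lists. Ratios are log2 of (TPM + 1) in pool 2 over pool 1, and genes with a mean TPM of 10 (or 1) or more gave the background. Counting intervals are exact at 95%. Windows are 100 nt runs searched on both strands of all deposited transcripts found in M21. TMM came from edgeR 4.0.16 and size factors from DESeq2 1.42.0 in R 4.3.3 on rounded counts, tested on simulated data. Tables were joined with pandas 2.3.3 and numpy 2.4.6 under Python 3.11.15, intervals came from scipy 1.17.1, and plots from matplotlib 3.10.9.

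The labels give 1 group, so no test was run, and without 1 pool only the other's value is left. Named genes are the 6 members, up to 4 of each list with the highest mean TPM and up to 2 with the widest ratio among genes with a mean TPM of 10 or more, the highest noncoding genes and the genes next to a member, of which some are left out for length. Snhg17, Elac2, Rpp25, Pvt1, Celf3, Dazap1 and Rbm14 were named after their values were seen where the rule does not give them. Alternatives were other pseudocounts, scalings, folds and filters, counts in place of TPM and each pool alone. Genes of the lists that were not in the files were not analysed here.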

Additional observations from a re-analysis of the deposited data

How the results depend on the processing

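The number of members past 1.5-fold, 3 by TPM, was 1 at a fold of 2. It was 2 with counts per 1000000, TMM scaling or DESeq2 size factors, where Neat1 was no longer past the fold. With counts scaled by the spike-ins it was 5, but that scale moved the median of all genes by 0.67, to 0.60. A gene at that median is itself past 1.5-fold, so the 5 is no trait of the members. By TPM, the share of all genes past 1.5-fold was 7.38% with a mean TPM of 10 or more and 11.5% with a mean TPM of 1 or more. It was 9.27% with at least 1 count in either pool. That share was not computed on the count scales or at a fold of 2. The Malat1 level of 76904 TPM was 130969 TPM with Gm37376 added, 9340 TPM with the counts of both on the full-length transcript and 1165 TPM for the full-length transcript alone, of which the last 2 were added after seeing the data. No paired analysis was possible because the labels give 1 group. The order of the members was the same by counts and in each pool alone. With 1 pool left out the mean is the other pool's value. Depth limits Miat, with 6.15 counts in pool 2 and 17.0 counts in pool 1, and its ratio was -2.19 with a pseudocount of 0.1.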
